A study of Danio rerio with 11 samples.

Results

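Sorted intermediate mesoderm of zebrafish embryos at the 4/5-somite stage was compared between the spt mutant and wild-type. The comparison rests on 5 of the 11 arrays of the series, 2 of wild-type and 3 of spt, which were taken by their labels, and on all 15502 probe sets other than the control probe sets of the array. Embryos of the spt group were homozygous for the recessive b104 allele of tbx16, and the wild-type embryos carried 2 normal copies of the gene. Both groups came from crosses to a line in which the pax2a promoter drives GFP, and both were sorted for GFP. Head tissue in front of the first somite was cut away, the trunks of several embryos were pooled, and the GFP-positive cells were collected by flow cytometry, so that a group holds whatever trunk cells carry the reporter. RNA of each sort went through 2 rounds of amplification before hybridization. Separate clutches were used, and no source ties a wild-type array to an spt array. The other 6 arrays hold unamplified RNA of middle tail tissue at the 21-somite stage, 3 of wild-type and 3 of spt. They enter only the fits of all 11 arrays, which include the test of a difference between the stages, and the values given for the tail.

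The intermediate mesoderm is the strip of mesoderm that lies between the somites and the lateral plate. In the zebrafish trunk it gives rise to the pronephric kidney and, in the same stripes, to the first red blood cells, which are specified by factors such as tal1, gata1a and lmo2. The T-box factor encoded by tbx16 binds DNA, acts in the movement of mesoderm cells out of the margin during gastrulation and is needed for trunk paraxial mesoderm and for primitive blood. A zebrafish spt embryo has few trunk muscle precursors, a mass of cells in its tail and little embryonic blood.

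The 5 arrays were alike in brightness, with a median deposited signal of 152 to 167 and 67.6% to 71.1% of probe sets at a signal of at least 100. The spt replicate 4 array lay closer to the wild-type arrays than to the other spt arrays. Over the probe sets of the array (which are no replicates of each other) its log2 signals correlated at 0.882 and 0.903 with the wild-type arrays and at 0.876 with either of the other spt arrays, whereas spt replicates 3 and 5 correlated at 0.840 to 0.860 with wild-type. Replicates 3 and 5 correlated at 0.864 with each other, below the 0.876 of either with replicate 4. The median absolute difference of replicate 4 from the wild-type mean was 0.208 on the log2 scale. From the mean of the other spt arrays it was 0.336. A part of this array in the results below was not tested, and the counts of most gene lists are also given without it. In limma 0 probe sets (0.0%) passed an adjusted p of 0.05, with 1116 at an unadjusted p under 0.05. A Welch t-test on the same normalized values also passed 0, with 791 at an unadjusted p under 0.05. A fit of all 11 arrays, which estimates the spread on the unamplified tail RNA as well, called 338, or 106 with array weights by stage. No single gene of the 5 arrays is therefore called, and the text describes candidates. A candidate has an unadjusted p under 0.05 in limma and differs by at least 1.5-fold, where folds are on the scale of log2(signal + 16).

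There were 423 candidate probe sets lower in spt (2.73% of all) and 476 higher (3.07%). The lower ones reached further. Among the candidates 28 were lower by 8-fold or more and 10 were higher by that much, and 9 were lower by 16-fold or more against 0 higher. With 1 gene symbol and the brightest probe set for each gene, 284 of 8793 genes were lower (3.23%) and 292 higher (3.32%). The 3 spt values lay entirely below both wild-type values, with at least 1.5-fold between the group means, for 594 genes (6.76%), and entirely above them for 554 genes (6.3%). With spt replicate 4 left out there were 662 lower genes (7.53%) and 453 higher genes (5.15%). Leaving out each of the other arrays gave 229 to 262 lower and 202 to 272 higher genes. The counts of the gene lists below are to be read beside these shares. The median log2 fold change over all genes was -0.02.

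**Figure D1:**
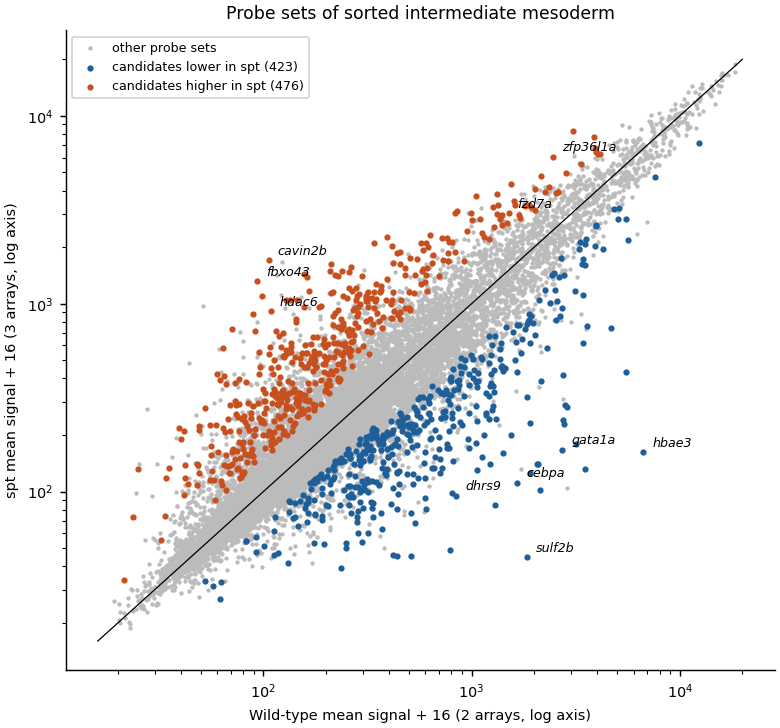
Mean signal of each probe set plus 16 in spt (3 arrays, vertical log axis) against wild-type (2 arrays, horizontal log axis), with the 423 candidates lower in spt in blue, the 476 higher in orange and the line of equal signal in black. The candidates farthest from the line lie on the lower side, with hbae3 and sulf2b the most distant of the genes that are named.

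Some genes of the tissue had signal in the sorted cells of both genotypes. The kidney factor hnf1bb, a homeobox gene needed for the pronephros, was bright throughout, with 5290 and 5660 in wild-type and 7341, 8365 and 4540 in spt. The early kidney factor pax8 was much dimmer, with 239 and 263 in wild-type and 178, 256 and 199 in spt. The kidney factor wt1a, also chosen after its values were seen, was under 100 on the 5 arrays by each of its probe sets. For pax2a, whose promoter drove the reporter, the brighter probe set showed more signal in spt, at 1012, 1293 and 517 beside 268 and 267 in wild-type, a log2 difference of 1.66 (SE 0.48), while the dimmer one differed by -0.45. The LIM homeobox factor lhx1a, which acts early in the pronephros, went the same way on its brightest probe set, with 475 and 511 in wild-type and 1375, 724 and 846 in spt and no overlap of the groups, and it was chosen after its values were seen, as were hnf1bb, pax8 and cdh17. The cells were gated on the reporter of pax2a, and the part of the gate in the pax2a signal was not tested. In all, 20 of the 29 kidney factors on the list had a probe set. Of these 0 were candidates lower in spt and 1 was higher (pax2a), beside 3.23% and 3.32% of all genes. Their median log2 fold change was 0.18. In the absence of spt replicate 4 the median was -0.05, with 2 lower and 1 higher, so its sign rested on that array.

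Genes of pronephric tubules and transport were listed as well. Of 18 measured genes, 2 were lower candidates (trpm7 and gstp1.2) and 0 higher, beside 3.23% and 3.32% of all genes. The list median was -0.03. There was 1 lower without spt replicate 4, and 0 without wild-type replicate 1, wild-type replicate 2 or spt replicate 5. The cadherin cdh17, which marks the zebrafish pronephric duct, varied more among the spt arrays than between genotypes, with 493 and 521 in wild-type and 1825, 464 and 40.5 in spt. The mutated gene itself was dim. The brighter tbx16 probe set had 102 and 103 in wild-type and 78.6, 98.8 and 94.3 in spt, and the other had a signal under 100 on all arrays, so they give no check of the genotype.

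Many blood genes were lower in spt by large factors. The authors had excluded a further wild-type array, on which the paper reports far lower red blood cell markers. The part of that exclusion in the blood values here and below was not tested, and leaving out single arrays does not test it. Of 23 measured blood transcription factors and signalling genes, 8 were candidates lower in spt and 1 was higher, beside 3.23% and 3.32% of all genes. Their median log2 fold change was -0.49, and it stayed between -0.58 and -0.36 over the alternatives. With spt replicate 4 left out 8 were lower and 2 higher, beside 7.53% and 5.15% of all genes. With any other array left out 6 or 7 were lower and 0 or 1 higher. The master erythroid factor gata1a was low in every spt array, with 2496 and 2922 in wild-type and 123, 186 and 143 in spt, whereas the stem cell leukaemia factor tal1 was not, with 2203 and 3502 in wild-type and 763, 17.7 and 18.8 in spt. In the latter, spt replicate 3 kept a signal that the others did not. These arrays hold all sorted cells together, so fewer cells of a type and less RNA per cell cannot be told apart here or in what follows.

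The other blood genes differed by degrees. The zinc finger factor drl (draculin), expressed in zebrafish blood and heart precursors, had 1922 and 2167 in wild-type and 41.9, 254 and 76.7 in spt, so that the array closest to wild-type was spt replicate 4. The homeobox gene hhex, active in zebrafish blood and endothelial precursors, had 795 and 1407 in wild-type and 251, 87.3 and 74.1 in spt. The kinase jak2a, which relays the signal of cytokine receptors, had 725 and 793 in wild-type and 65.2, 272 and 128 in spt. All 3 had groups that did not overlap. The Krüppel-like factor klf3 and the erythroid factor nfe2, which were chosen after their values were seen, as was lmo2 below, differed by -1.79 and -0.98 on the log2 scale. By contrast lmo2, the scaffold that joins TAL1 to GATA factors, kept most of its signal, with 6428 and 7591 in wild-type and 5814, 4687 and 4562 in spt, and its partner ldb1a was the higher candidate, with 2873 and 3787 in wild-type and 6168, 4395 and 6020 in spt. Thus the factors that share 1 complex were unequally changed on these arrays, from -4.85 for tal1 and -4.04 for gata1a to -0.48 for lmo2 and 0.73 for ldb1a.

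**Figure D2:**
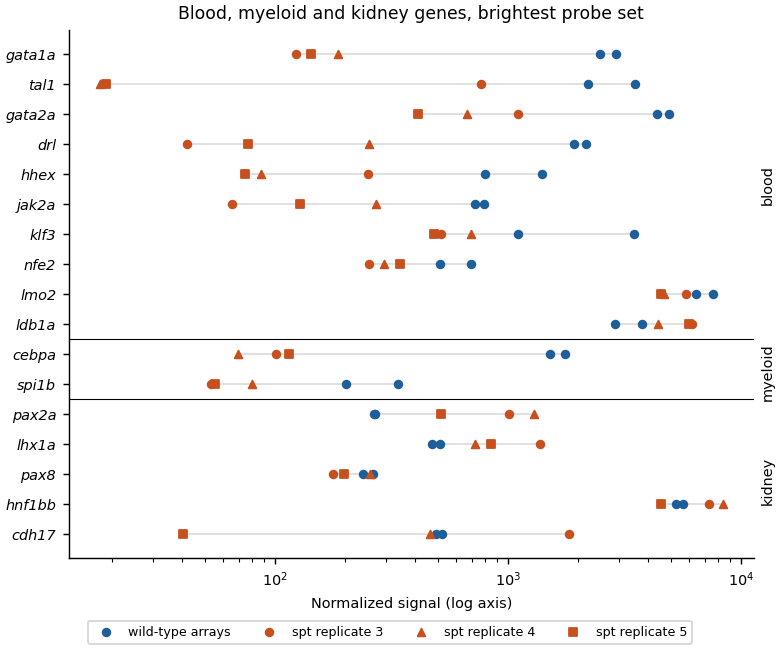
Normalized signal (horizontal log axis) of blood, myeloid and kidney genes on the 2 wild-type arrays (blue) and the 3 spt arrays (orange, 1 symbol per replicate), each gene by its brightest probe set. Most blood genes separate by genotype, tal1 has 1 spt array near 763, lmo2 stays bright in both, and pax8 and cdh17 overlap.

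Of the products that a red blood cell needs, 3 of 5 globin genes were lower candidates and 0 higher, beside 3.23% and 3.32% of all genes. Their median was -1.26, and without spt replicate 4 the counts were the same. The beta globin hbbe2 had 555 and 389 in wild-type and 176, 178 and 203 in spt, a smaller step (-1.26) than those of hbae3 (-5.37) and hbbe3 (-3.80). Globin probe sets are of near-identical genes, so the share of each gene is uncertain. Of 15 measured heme and iron genes 2 were lower candidates, cpox and urod, both enzymes of the late steps of heme synthesis. The median was -0.05, with the same counts without spt replicate 4. A probe set without a single gene symbol, which the paper names hydroxymethylbilane synthase a (hmbsa), lay outside this count. It was a lower candidate too, with 1095 and 994 in wild-type and 124, 324 and 217 in spt. By the paper's in situ hybridization hmbsa was reduced in spt intermediate mesoderm. The signal of cpox was 1618 and 2538 in wild-type and 150.2, 91.5 and 128 in spt, and that of urod was 254 and 369 in wild-type and 169, 167 and 115 in spt. The first step of the erythroid pathway, alas2, was dim on all arrays, with 192 and 198 in wild-type and 153, 212 and 145 in spt. Red cell membrane genes gave 1 lower candidate of 9, the scaffold mpp1 (other probe sets -0.89 and 0.09), and 2 without spt replicate 4. 

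Myeloid candidates were regulators. The factor cebpa, which directs granulocyte and monocyte fates, was among the 10 probe sets with the smallest p, with 1514 and 1764 in wild-type and 101, 69.6 and 115 in spt (log2 fold change -3.91, SE 0.31, adjusted p = 0.091). The ETS factor spi1b, known as pu.1, was dimmer but also separated, with 203 and 336 in wild-type and 53.2, 79.6 and 55.5 in spt, and its second probe set gave -0.37. They were the 2 lower candidates among 14 measured myeloid genes, with 0 higher, beside 3.23% and 3.32% of all genes. The list median was -0.09, and the counts were the same without spt replicate 4. The tyrosine kinase btk is known from B cell development in mammals and was chosen here after its values were seen. It had 726 and 1186 in wild-type and 164, 120.3 and 176.9 in spt. Among 15 endothelial genes, flt4 and s1pr1 were lower candidates and plvapb, a gene of the endothelial diaphragm, was a higher one, with 52.1 and 75.7 in wild-type and 192, 225 and 277 in spt. The paper's in situ hybridization showed s1pr1 higher in spt, against the arrays. In the absence of spt replicate 4 the endothelial counts were 1 lower and 1 higher, and without wild-type replicate 2 they were 0 and 1.

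The death receptor hdr, named for zebrafish blood, shows how far a value depends on the probe set. One probe set had 329 and 275 in wild-type and 41.2, 44.4 and 46.7 in spt, the second smallest p of all, and a brighter one had 399 and 385 in wild-type and 421, 488 and 423 in spt. Over all 1539 genes with more than 1 probe set, the other probe sets had the sign of the brightest in 53.7% of cases. For genes that were lower candidates this share was 61.1% of 72, and for higher candidates 53.8% of 80. Of those other probe sets 7 and 9 were candidates in the same direction themselves. Which probe set stands for its gene was not tested. Values of other probe sets are given beside many of the genes below that have them.

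Several of the largest differences lay outside the known blood genes. The heparan sulphate endosulphatase sulf2b, an extracellular enzyme that trims sulphate groups to which growth factors bind, had 2641 and 1016 in wild-type and 31.8, 27.0 and 27.51 in spt, so that a bright signal in wild-type met values near the lower end of the scale in all 3 spt arrays (log2 fold change -5.21, SE 0.43, adjusted p = 0.091). Its relative sulf1 went the other way, with 93.4 and 163 in wild-type and 322, 906 and 1865 in spt on the brighter probe set (2.58), although the second sulf1 probe set gave -0.41. The genes dhrs9 and egr2a shared the smallest adjusted p with hbae3, hdr and an unnamed probe set.

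The dehydrogenase dhrs9 acts in zebrafish on retinol, the precursor of retinoic acid. It had 814 and 846 in wild-type and 89.4, 67.8 and 79.4 in spt, and both groups were tight (-3.16, SE 0.21, adjusted p = 0.0634). The zinc finger factor egr2a had 509 and 333 in wild-type and 27.3, 32.8 and 28.3 in spt (-3.24, SE 0.21, adjusted p = 0.0634). In both genes the spt values lay far below wild-type, and without spt replicate 4 the log2 fold changes were -3.09 and -3.29.

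Some transcription factors known from neural tissue were lower candidates. The SoxB1 factor sox1a, which marks neural progenitors, had 332 and 472 in wild-type and 10.7, 24.97 and 53.8 in spt on the probe set that differed, while 2 further probe sets of the gene gave -0.03 and -0.45. The zinc finger factor zic4 was uneven in wild-type, with 176 and 818 in wild-type and 28.7, 29.8 and 29.3 in spt. The SoxB2 factor sox21b had 1184 and 232 in wild-type and 62.7, 221 and 66.4 in spt, where spt replicate 4 came close to wild-type replicate 2. Outside this tissue, the bHLH factor hey2, a target of Notch that zebrafish need for the aorta, had 951 and 622 in wild-type and 91.1, 90.4 and 65.7 in spt. The list of neural and midbrain-hindbrain genes as a whole gave 1 lower (sox3) and 3 higher candidates (gbx2, sox2 and her4.2) of 37. Over all genes 3.23% were lower and 3.32% higher candidates. The list median was -0.13. The balance turned to 3 lower and 1 higher without wild-type replicate 1, and again without wild-type replicate 2, and was 1 and 1 without spt replicate 3 or 5. Other probe sets of sox3 gave 0.13 and -0.10, those of sox2 gave 0.05 and -0.01, and that of her4.2 gave 0.92.

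The remaining genes of the lower set had many roles. In the insulin-like growth factor pathway, the binding protein igfbp1b had 4092 and 1348 in wild-type and 419.7, 136 and 121 in spt. The paralogue igfbp1a, which was chosen after its values were seen, had 1400 and 672 in wild-type and 175, 198 and 121 in spt on 1 probe set and differed by -0.26 on the other. These secreted proteins hold the growth factors away from their receptor. The polo-like kinase plk2b had 1689 and 878 in wild-type and 58.1, 69.5 and 79.4 in spt. The death gene pmaip1 (noxa), a BH3-only target of p53, ranged widely within spt, with 3610 and 2718 in wild-type and 313, 145 and 29.3 in spt, and its second probe set gave -0.36. It was the 1 lower candidate of 28 p53 and cell death genes, with 0 higher, beside 3.23% and 3.32% of all genes. The chromatin gene arid4a had 1329 and 2905 in wild-type and 40.9, 114 and 104 in spt, and the RNA-binding pabpc4, which coats poly(A) tails, had 1974 and 3636 in wild-type and 605, 109 and 104 in spt. Lastly wdtc1 and cpa4, a carboxypeptidase, had spt replicate 4 well above the other spt arrays, at 437 and 268 against 32.2 to 59.1, and the second cpa4 probe set gave -0.11.

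**Figure D3:**
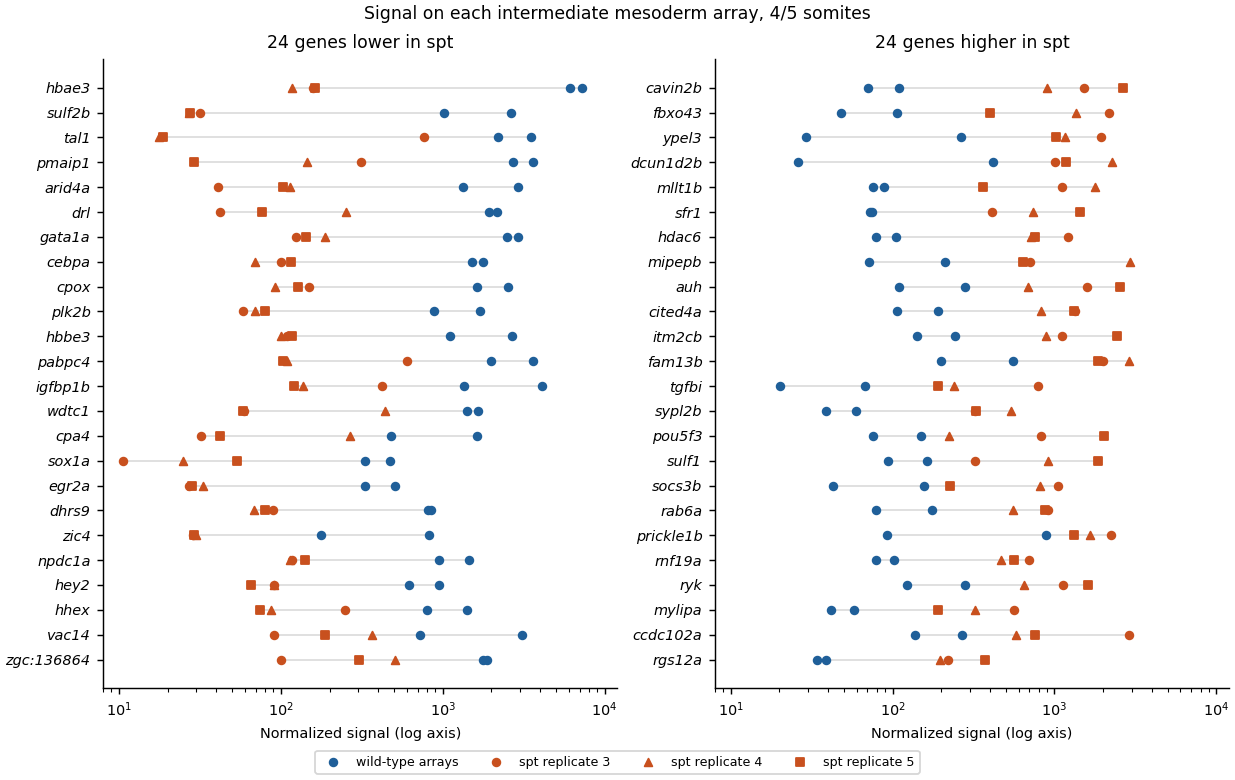
Normalized signal (horizontal log axis) on each array of the 24 genes with the largest lower and the 24 with the largest higher log2 fold change among genes with an unadjusted p under 0.05, groups that do not overlap and a mean signal of at least 100 in the brighter genotype. Blue points are the 2 wild-type arrays and orange symbols the 3 spt arrays. The rule fixes the gap between the colours. The spread within a colour shows which genes rest on even groups, such as dhrs9, hdac6 and gata1a, and which on uneven ones, such as tal1, zic4, dcun1d2b and pou5f3.

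The genes with the largest higher values in spt started from a low wild-type signal. The caveolar coat gene cavin2b had 109.6 and 70.8 in wild-type and 1526, 897 and 2654 in spt (log2 fold change 3.90, SE 0.55, adjusted p = 0.238), and its other probe set gave -0.18. The gene fbxo43, which encodes an inhibitor of the anaphase-promoting complex known as Emi2, had 47.8 and 107 in wild-type and 2164, 1352 and 397 in spt. The cytoplasmic deacetylase hdac6, which acts on tubulin, had 105 and 79.2 in wild-type and 1212, 713 and 755 in spt and had the smallest standard error of these 3 (SE 0.36). In all 3 genes the wild-type values were near or below 110.

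Others of this set were bright in spt and uneven. The elongation factor gene mllt1b had 88.7 and 75.5 in wild-type and 1111, 1779 and 362 in spt. The CBP/p300 partner cited4a had 192 and 106 in wild-type and 1330, 821 and 1324 in spt. The early embryonic Pou factor pou5f3, which keeps cells uncommitted and persists in the neural plate and tailbud of zebrafish, had 75.8 and 149.6 in wild-type and 822, 224 and 2034 in spt, with spt replicate 4 the closest to wild-type. The cytokine brake socs3b, an inhibitor of JAK and STAT signalling, had 43.1 and 156 in wild-type and 1053, 818 and 226 in spt, on the same arrays on which jak2a was lower. The RNA-decay factor zfp36l1a was bright and even, with 2430 and 2472 in wild-type and 6636, 5515 and 6003 in spt (log2 fold change 1.29, SE 0.16, adjusted p = 0.19).

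Wnt pathway members leaned to higher values. Of 42 measured ligands, receptors and transducers 0 were lower candidates and 5 were higher, beside 3.23% and 3.32% of all genes, and their median was 0.10 (0.06 to 0.20 over the alternatives). The 5 higher candidates were 2 without wild-type replicate 1 and 3 without spt replicate 3, and without spt replicate 4 there were 2 lower and 5 higher. Those higher include receptors, a planar polarity protein and an acyltransferase. The atypical receptor ryk had 279.8 and 122 in wild-type and 1129, 650.1 and 1622 in spt, and the planar polarity protein prickle1b had 93.1 and 887 in wild-type and 2246, 1669 and 1319 in spt, where wild-type replicate 2 was near the spt values. In each the spt values were the higher ones. The Frizzled receptor fzd7a had 1535 and 1446 in wild-type and 2821, 2746 and 3492 in spt. Its dimmer relative fzd2 had 78.6 and 87.7 in wild-type and 149, 165 and 236 in spt. The fifth was porcnl, an acyltransferase that lets Wnt proteins be secreted, with 112 and 157 in wild-type and 379, 365 and 203 in spt. In all, 10 of the 42 had spt values above both wild-type values and 0 had them below, against 6.3% and 6.76% of all genes. The inhibitor axin1, which was chosen after its values were seen, had 1 probe set at 1.74 and a brighter one at 0.15.

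The BMP, Nodal and TGF-beta list was mixed, with 4 lower and 3 higher candidates of 47, beside 3.23% and 3.32% of all genes. Its median was 0.04. On the lower side were the ligands bmp4, bmp3 and gdf3 (the zebrafish Vg1) and the receptor tgfbr2b. On the higher side were the receptor bmpr1ab, the activin-type receptor acvr1l and the transducer smad5. The signal of bmp4 was 299 and 252 in wild-type and 170.1, 189 and 163 in spt, and that of bmpr1ab was 259.9 and 359 in wild-type and 876, 897 and 664 in spt. The second probe set of tgfbr2b gave -0.01 and that of smad5 gave -0.10. With spt replicate 4 left out the counts were 7 lower and 4 higher, whereas 1 was lower without wild-type replicate 1, spt replicate 3 or spt replicate 5.

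Beside 3.23% and 3.32% of all genes, 0 of 38 FGF and MAP kinase genes were lower and 3 higher, with a median of 0.04. They were the kinase araf, the feedback inhibitor il17rd (Sef) and the transcriptional target etv5b, which had 1892 and 2128 in wild-type and 3438, 3386 and 5326 in spt. In the absence of spt replicate 4 there were 2 lower and 4 higher. Notch genes gave 2 lower candidates of 32, hey2 and the ligand jag1a, and 1 higher, her4.2, and 4 lower and 1 higher without spt replicate 4. Without wild-type replicate 1, spt replicate 3 or spt replicate 5 they were 1 and 0. Retinoic acid genes gave dhrs9 as the lower candidate and stra6, the cellular importer of retinol, as the higher one of 25. The signal of stra6 was 64.01 and 129.7 in wild-type and 186, 449 and 372 in spt. Their median was 0.17, and it was 0.02 without wild-type replicate 1. Without spt replicate 4 the counts were 3 lower and 0 higher.

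The candidates among adhesion genes were higher in spt. Among 39 cadherins, protocadherins and junction genes 4 were higher candidates and 0 lower, beside 3.32% and 3.23% of all genes, with a median of 0.22. There were 2 higher without wild-type replicate 2. With spt replicate 4 left out the counts were 1 lower and 4 higher, and the median was 0.02. The candidates were E-cadherin (cdh1), desmoplakin (dspa, second probe set 0.12), the gap junction gene gjc4b and the tight junction gene f11r.1. The signal of cdh1 was 195 and 119.6 in wild-type and 369, 371 and 519 in spt, and that of gjc4b was 259 and 139.6 in wild-type and 564, 595 and 782 in spt. Epidermal genes were checked beside them, since cdh1 and dspa also mark skin. Of 33 epidermis and keratin genes those same 2 were the higher candidates, 0 were lower, and the median was 0.00, with 4 lower and 3 higher without spt replicate 4. The summed signal of the list was 5845 and 9324 in wild-type and 6890 to 9027 in spt, and the keratins krt4 and krt5, markers of zebrafish skin, differed by -0.29 and 0.00 at low signals, with krt4 at 171 and 147 in wild-type and 108, 154 and 121 in spt. The adhesion molecule epcam, which marks epithelia, had the largest change of the list, with 123 and 352 in wild-type and 398, 894 and 2284 in spt and no overlap of the groups, although it was no candidate (log2 fold change 2.08, SE 0.86, adjusted p = 0.688) and its dimmer probe set gave -0.14. The part of epidermal cells in these values was not tested.

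Among matrix genes the laminin chain lamb1a and the collagen col18a1a, both parts of basement membranes, were the 2 higher candidates of 39, and 0 were lower (1 without spt replicate 4). Without wild-type replicate 1 there were 0 higher. Over all genes 3.32% were higher and 3.23% lower candidates. The signal of lamb1a was 3126 and 4680 in wild-type and 6294, 7217 and 6657 in spt. The chemokine cxcl12a, which guides migrating cells, had 790.2 and 416 in wild-type and 1133, 1507 and 3290 in spt on its brighter probe set and a log2 fold change of -0.25 on the other, and the lipid receptor s1pr1 had 485 and 492 in wild-type and 88.2, 132 and 300.1 in spt. They were the 1 higher and the 1 lower candidate of 43 guidance genes, with a median of 0.01. The groups of s1pr1 did not overlap, but its second probe set gave 0.04. By the paper's in situ hybridization s1pr1 was higher in spt in at least part of its domain, the neuroectoderm and tailbud.

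Hox genes gave candidates on both sides. Of 42 Hox genes 1 was a lower and 4 were higher candidates, beside 3.23% and 3.32% of all genes, and the median was 0.03. Those higher were hoxb10a, hoxb9a, hoxb8a (other probe sets 0.17 and 0.43) and hoxd4a (other probe set -0.11), and hoxa11a was lower. By the paper's in situ hybridization, in contrast, hoxa11a was higher in spt, in the tailbud. The signal of hoxb9a was 908 and 1582 in wild-type and 3323, 3398 and 3094 in spt, and its second probe set gave 0.07. The signal of hoxb10a was 225 and 246 in wild-type and 1152, 661 and 1364 in spt, with other probe sets at -0.07 and 0.29. The higher signal of either gene was thus seen on 1 of its probe sets. In the absence of spt replicate 4 there were 6 lower and 6 higher Hox candidates, beside 7.53% and 5.15% of all genes. Without wild-type replicate 1 there were 0 and 2.

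Tailbud and presomitic genes were compared in these cells, which were sorted for the pax2a reporter. Over all genes 3.23% were lower and 3.32% higher candidates, and 7.53% and 5.15% without spt replicate 4. Of 27 presomitic and paraxial mesoderm genes msgn1 and mespba were lower and 0 were higher, with a median of 0.01, and without spt replicate 4 there were 3 lower and 0 higher. The segmentation factor mespba, which sets somite borders, had 293 and 257 in wild-type and 123, 117 and 125 in spt. The presomitic factor msgn1, a target of T-box factors in zebrafish, had 246 and 616 in wild-type and 127, 105 and 109 in spt, and its other probe set gave -0.23. Of 23 tailbud genes the Wnt target sp5l was the higher candidate, with 243 and 156 in wild-type and 1005, 1008 and 531 in spt, and bmp4 the lower, and 2 were lower and 1 higher without spt replicate 4. With any other array left out bmp4 was no longer a candidate. The posterior homeobox gene cdx4 was bright but spread, with 943 and 3799 in wild-type and 1572, 2788 and 6378 in spt, and tbxta, the zebrafish brachyury, had 82.6 and 178 in wild-type and 138, 209.8 and 189.8 in spt. The summed tailbud signal was 5254 and 7083 in wild-type and 5583, 7447 and 15052 in spt, so 1 spt array, replicate 5, carried the highest sum. What part tailbud cells had in the result was not tested.

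Markers of other tissues that the sort could hold were compared in the same way. Muscle contraction genes gave 1 lower candidate (tnnt3b) of 35, a share near the 3.23% of all genes, with a median of -0.11. Without spt replicate 4 there were 7 lower ones, beside 7.53% of all genes. Otic and calcium genes gave 0 candidates of 16 and 14, and germ cell genes 0 of 9. The calcium count leaves out a probe set without a single gene symbol, which the paper names calm1a. This probe set was a lower candidate, with 1246 and 1480 in wild-type and 567, 865 and 379 in spt. The paper's in situ hybridization showed calm1a reduced in spt intermediate mesoderm. Notochord genes gave lamb1a of 19, and hatching gland genes gsc of 8, as higher candidates. Crest genes gave foxd3 of 11, and endoderm and yolk genes hhex of 26, as lower ones. The medians of these lists lay between -0.14 and 0.09. Summed signals overlapped between the genotypes for neural genes (13931 and 15766 in wild-type, 11067 to 15419 in spt), but were lower in spt for endoderm and yolk genes in 2 of 3 arrays. Immediate-early and heat shock genes, which respond to handling of tissue, gave 2 lower (egr2a and dnajb1a) and 2 higher candidates (socs3b and zfp36l1a) of 47. Their median was -0.08, and it was 0.12 without wild-type replicate 2.

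Genes of DNA replication and of mitosis leaned in opposite directions. Of 49 measured DNA replication genes 6 were lower candidates and 0 higher, beside 3.23% and 3.32% of all genes, 41 had a negative log2 fold change, and the median was -0.33. The 6 were orc2 of the origin recognition complex, gins2 and mcm7 of the replicative helicase, the polymerase subunit pold2, the clamp loader rfc1 and the ribonuclease subunit rnaseh2b. The helicase subunit mcm7 had 3978 and 3896 in wild-type and 2456, 2222 and 3013 in spt, and pold2 had 231 and 339 in wild-type and 92.9, 126 and 167 in spt. The median kept its sign in each of the 10 alternatives, from -0.49 to -0.22, but the count did not hold as well. It was 2 lower without wild-type replicate 1, wild-type replicate 2 or spt replicate 3, and 8 lower and 2 higher without spt replicate 4.

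Mitosis genes, in contrast, gave 0 lower and 2 higher candidates of 39, a share near the 3.32% of all genes, with 10 negative values and a median of 0.24 (0.16 to 0.39 over the alternatives), and 1 was lower and 2 higher without spt replicate 4. The cyclin ccnb1, whose kinase partner drives entry into mitosis, had 267 and 272 in wild-type and 498, 600.2 and 547 in spt. The spindle motor cenpe had 728 and 385 in wild-type and 1016, 1201 and 1571 in spt. The 3 spt arrays each had a positive list median for mitosis genes (0.178, 0.180 and 0.374) and a negative one for replication genes (-0.560, -0.316 and -0.138). The difference between these lists was not tested.

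Mitochondrial genes leaned to lower values. The list held 86 respiration genes, which encode subunits and assembly factors of the electron transport chain and ATP synthase. Of these 6 were lower candidates and 0 higher, beside 3.23% and 3.32% of all genes. In 12 the spt values lay below both wild-type values and in 0 above, beside 6.76% and 6.3% of all genes. The list median was -0.27, but it shrank to -0.06 without wild-type replicate 2 and was -0.12 with arrays scaled to 1 median. The ATP synthase subunit atp5mea had 3184 and 3939 in wild-type and 384, 1530 and 327 in spt. The complex I subunit ndufb2 had 559 and 509 in wild-type and 186, 170.4 and 125 in spt. The mitochondrial ribosome list gave 5 lower and 0 higher candidates of 59 with a median of -0.29 (-0.40 to -0.19), among them mrpl49, which had 1030 and 974 in wild-type and 294, 467 and 390.4 in spt. Without spt replicate 4 there were 10 lower and 0 higher respiration genes, and 9 lower and 2 higher mitochondrial ribosome genes, beside 7.53% and 5.15% of all genes. Without wild-type replicate 1 or wild-type replicate 2 there were 2 lower genes in either list.

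Cytosolic ribosomal proteins leaned the same way. Of 71 genes 3 were lower candidates (rpl27a, rps21 and rpl23a) and 0 higher, a share near the 3.23% of all genes, 56 were negative, and the median was -0.17, between -0.24 and -0.09 over the alternatives. With spt replicate 4 left out there were 8 lower and 0 higher, and with any other array left out 0 were lower. Ribosome assembly genes gave 6 lower and 2 higher candidates of 81, with a median of -0.10 that was -0.01 with arrays scaled to 1 median, which itself moved the median of all genes to 0.03. In the absence of spt replicate 4 the counts were 13 lower and 2 higher, and without either wild-type array 3 were lower. The assembly factor nob1 had 5170 and 5864 in wild-type and 2905, 2909 and 2629 in spt, and its second probe set gave 0.30. Proteasome subunits gave 1 lower and 2 higher of 50, with a median of -0.12 that was 0.005 under that scaling. Glycolytic enzymes gave 1 of 30, the aldolase aldocb, whose second probe set gave -0.13.

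Chromatin genes gave 1 lower and 4 higher candidates of 67, beside 3.23% and 3.32% of all genes, and a median of 0.12. Besides hdac6 the higher ones were the Polycomb gene phc2a, the H3K4 demethylase kdm5ba and the acetyltransferase crebbpb. The signal of phc2a was 1067 and 907 in wild-type and 2428, 2400 and 3526 in spt, and that of crebbpb was 1055 and 1702 in wild-type and 3610, 2167 and 3064 in spt. The second crebbpb probe set also gave a positive value, 1.07. The H3K9 methyltransferase setdb1a was the lower candidate, with 923 and 1494 in wild-type and 508, 401 and 143 in spt, and its other probe set gave 0.18. There were 1 lower and 8 higher without spt replicate 4, and 1 and 2 without spt replicate 3. The list median was -0.003 without wild-type replicate 2, so its sign rested on that array. Vacuolar ATPase and lysosome genes were split 3 and 3 of 33, and 1 and 1 without spt replicate 5. The higher ones were lamp1b, lamp2 and the pump subunit atp6v1g1, and the lower ones the pump subunits atp6v1e1b, atp6v1b2 and atp6v0cb. Pump subunits were thus candidates on both sides, with atp6v1g1 at 107 and 254 in wild-type and 585, 410 and 720 in spt.

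**Figure D4:**
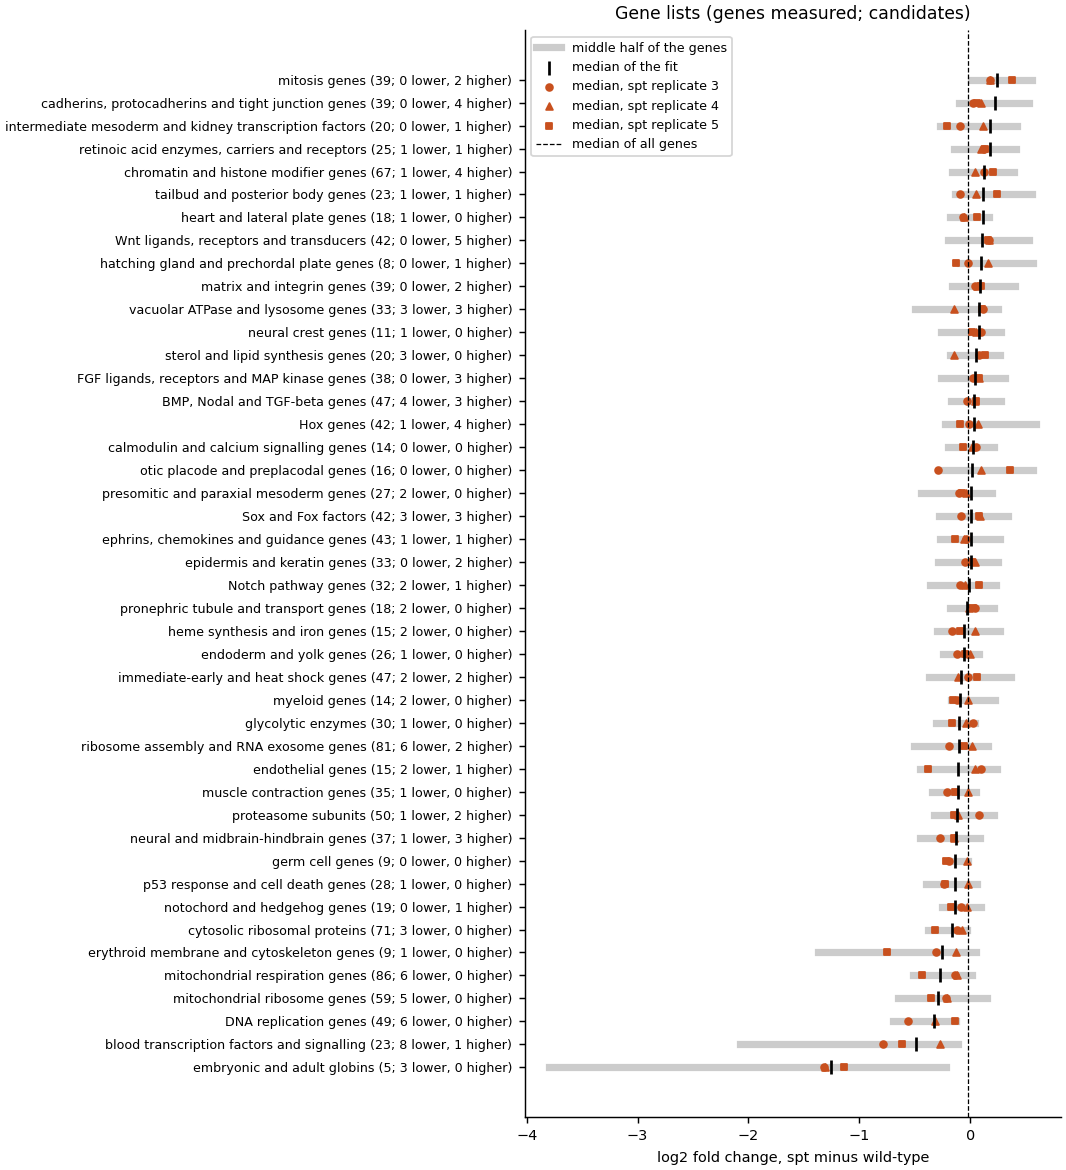
Median log2 fold change (spt minus wild-type, horizontal axis) of each gene list by the fit (black bar), the range from the first to the third quartile of its genes (grey) and the median of each spt array against the wild-type mean (orange symbols), with the number of genes measured and of candidates in brackets and the median of all genes, -0.02, as a dashed line. Globins and blood factors lie lowest, followed by DNA replication and mitochondrial ribosome genes, and mitosis genes lie highest.

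The study screened candidates of this comparison by in situ hybridization, and 42 probe sets of that screen were traced. The study chose them on these arrays for lower signal in spt, so their direction is no independent evidence. All 42 had spt values below both wild-type values, and log2 fold changes ran from -4.36 to -1.23 with a median of -1.65. Within them spt replicate 4 was the highest spt array for 25, replicate 3 for 10 and replicate 5 for 7. The most divided was a probe set with no gene symbol, with 2054 and 2217 in wild-type and 15.5, 1082 and 17.1 in spt. The zinc finger factor zeb2a was divided in another way, with 3552 and 3155 in wild-type and 45.2, 1573 and 977 in spt, and it was no candidate by the limma p. In contrast the calsyntenin clstn1 was even, with 298 and 258 in wild-type and 73.7, 99.8 and 83.7 in spt, and so was the coiled-coil gene ccdc28a, with 415 and 376 in wild-type and 183, 145 and 143 in spt. The oxidoreductase-like gfod2 had 403 and 402 in wild-type and 119.6, 87.5 and 59.5 in spt. By in situ hybridization the paper found ccdc28a and gfod2 ubiquitous and unchanged in spt, and the probe set with no gene symbol reduced. For zeb2a and clstn1 it also found no change, but detected their expression only outside the intermediate mesoderm. It saw reduced expression in spt intermediate mesoderm for a minority of the screened genes, among them drl, cebpa, jak2a and atp5mea. Of other lower candidates named here, ptgesl and rnaseh2b were ubiquitous and unchanged. Expression of aldocb and atp6v1e1b was seen only outside the intermediate mesoderm, unchanged for aldocb and reduced for atp6v1e1b. The paper describes a high false-positive rate of this comparison, though it holds that unchanged genes do not clearly refute the arrays. In the tail, the same 42 probe sets had a median log2 fold change of -0.03, and 23 were negative.

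To ask which differences belonged to the intermediate mesoderm, the log2 fold change there was set against that of the tail at 21 somites in 1 fit of all 11 arrays. The difference passed an adjusted p of 0.05 for 60 probe sets (0.387%), 31 more negative and 29 more positive in the intermediate mesoderm, and 1339 had an unadjusted p under 0.05. Of the 60, 50 were candidates in the intermediate mesoderm, 28 lower and 22 higher, and 47 of these differed by under 1.5-fold in the tail. In the other 10 the change was larger in the tail, where the red cell gene cahz and the muscle gene chrna1 were lower in spt and the sodium pump subunit atp1a1a.3 was higher. Stage, tissue and amplification cannot be told apart in this contrast. The fit takes part of its spread from the tail arrays, so a gene can pass here that was not called on the 5 arrays alone.

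The smallest adjusted p was that of sulf2b, which was -5.21 in the intermediate mesoderm and -0.14 in the tail, a difference of -5.07 (SE 0.38, adjusted p = 0.000485). In the tail sulf2b read 151, 134 and 160 in wild-type and 132, 133 and 133 in spt. It was thus dim there in both genotypes, which leaves little room for a lower value. For dhrs9 the values were -3.16 and -0.12, a difference of -3.04 (SE 0.25, adjusted p = 0.000568). In the tail dhrs9 read 104, 125 and 104 in wild-type and 101, 104 and 96.3 in spt, so it was dim there in both genotypes. The gene npdc1a, named for neural proliferation and differentiation, had 954 and 1456 in wild-type and 117, 113 and 141 in spt in the intermediate mesoderm on the probe set that differed, with -0.06 and -0.22 on others. The factors cebpa, hey2, egr2a and sox1a passed as well, with differences of -3.68, -2.98, -3.09 and -3.05. For hey2 the tail had signal in both genotypes, at 304, 323 and 250.4 in wild-type and 319, 293 and 247 in spt (log2 fold change -0.03).

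On the positive side cavin2b, cited4a, sfr1, fam13b, rnf19a and phc2a passed, with differences of 3.56, 3.16, 3.39, 2.91, 2.46 and 1.72. For cited4a the tail values were 1361, 1228 and 1266 in wild-type and 984, 1079 and 1043 in spt. For phc2a they were 2563, 2809 and 2496 in wild-type and 2173, 2164 and 2234 in spt. Each stage was normalized on its own, and only the RNA of the intermediate mesoderm was amplified. Signal levels can therefore be compared within a stage but not between the stages. Blood genes fell on both sides of the test. The globins hbae3 and hbbe3 had tail values of -4.39 and -4.37 and their differences did not pass (adjusted p = 0.499 and 0.887), gata1a had -2.40 and did not pass either (adjusted p = 0.0767), and cpox, at -1.45 in the tail, passed with -2.44.

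**Figure D5:**
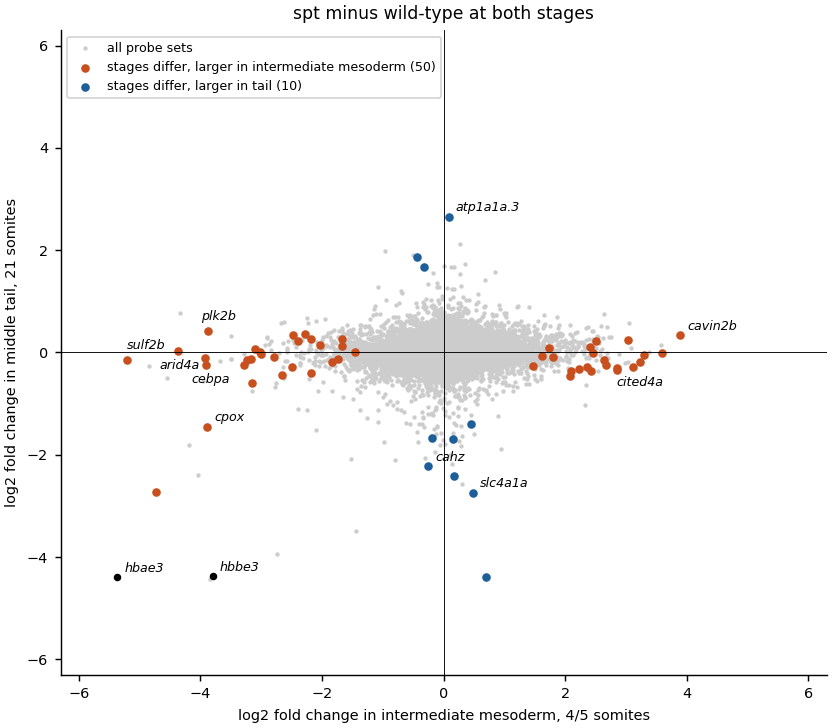
log2 fold change (spt minus wild-type) in the intermediate mesoderm at 4/5 somites (horizontal axis) and in the middle tail at 21 somites (vertical axis) for all probe sets (grey). The 60 probe sets whose change differed between the stages are orange where it was larger in the intermediate mesoderm (50) and blue where it was larger in the tail (10), and black points are the globins hbae3 and hbbe3. Of the 50 orange points 47 lie within 1.5-fold of the horizontal axis, and cpox is among the 3 that do not.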

How the data were processed

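The arrays were Affymetrix Zebrafish Genome Arrays. The authors deposited 1 intensity per probe set and array, computed with MAS5 5.0 on a linear scale, and how the values were scaled is not given in the sources used here. A further wild-type array of the intermediate mesoderm was excluded by the authors and is not used here. The paper gives as the reason that its profile grouped apart from the remaining wild-type arrays. It adds that red blood cell markers such as gata1 were far lower on that array. The wild-type arrays that were kept are thus those with high blood markers. The part of this choice in the blood differences was not tested. From the deposited intensities, the 5 arrays were quantile normalized, and log2(signal + 16) was fitted with limma 3.58.1 (lmFit, eBayes with a variance trend) in R 4.3.3, with Benjamini-Hochberg adjustment over 15502 probe sets. Of these, 10795 carry 1 gene symbol in the platform annotation, 135 several and 4572 none. A gene was read by its brightest probe set. The stage difference was fitted to 11 arrays, each stage normalized on its own, with array weights by stage. Named were the 24 largest candidates per direction with groups that do not overlap and a mean of at least 100 in the brighter group, the 10 smallest p, up to 6 candidates per direction of each of 44 lists, up to 8 stage differences per direction, and the screened probe sets. Other genes named were chosen after their values were seen. A Welch t-test, other scalings, pseudocounts of 1 and 64, a signal filter, array weights and leaving out arrays were alternatives. Members and lists were chosen with earlier results of these data known. Fits were tested on simulated data.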

Additional observations from a re-analysis of the deposited data

Results flagged for a closer look

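For 60 probe sets the change from wild-type to spt in the intermediate mesoderm differed from that in the tail by a test of the difference itself (limma, adjusted p under 0.05 over all probe sets). The 16 genes below are those that the rule for named genes takes from them, and others that passed, such as arid4a, cpox and sox1a, are not repeated. It was more negative in the intermediate mesoderm by a log2 difference of -5.07 for the sulphatase sulf2b, -4.29 for the kinase plk2b, -3.68 for the myeloid factor cebpa, -3.17 for npdc1a, -3.09 for the zinc finger factor egr2a, -3.04 for the retinol dehydrogenase dhrs9 and -2.98 for the Notch target hey2. It was more positive by 3.56 for the caveolar gene cavin2b, 3.39 for the DNA repair gene sfr1, 3.16 for cited4a, 2.91 for fam13b, 2.46 for the ubiquitin ligase rnf19a and 1.72 for the Polycomb gene phc2a. In the other 3 genes the change lay in the tail, with differences of -2.57 for the sodium pump subunit atp1a1a.3, 1.86 for the acetylcholine receptor subunit chrna1 and 1.98 for the carbonic anhydrase cahz. Without wild-type intermediate mesoderm replicate 2 the atp1a1a.3 change in the intermediate mesoderm was -0.07 in place of 0.08. In the tail sulf2b and dhrs9 were dim in both genotypes, which leaves little room for a lower value there. Groups of 2 and 3 arrays are too small for a test of single outlying arrays.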

How the results depend on the processing

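No paired analysis was possible because the wild-type and spt arrays of a stage carry different replicate numbers. The count of 0 probe sets at an adjusted p of 0.05 was 1 without a variance trend, 5 with array weights and 338 in the fit of all 11 arrays (106 with array weights by stage), and 0 with any array left out. Lower candidates numbered 182 by the Welch t-test, 791 with array weights and 984 in the fit of all arrays. They numbered 336 to 1053 with an array left out, the highest without spt replicate 4. Higher candidates numbered 199 by the Welch t-test, 713 with array weights and 996 in the fit of all arrays. They numbered 334 to 773 with an array left out, again highest without spt replicate 4. Probe sets with groups that did not overlap numbered 1785, and 2164 to 3392 with an array left out, where fewer samples make a gap easier. They were 3213 without wild-type replicate 1, 3310 without wild-type replicate 2 and 3392 without spt replicate 4. The 60 differences between stages became 22 to 162 with an array left out. There were 162 without spt replicate 4 and 30 without wild-type replicate 1 of the intermediate mesoderm. Among tail arrays, there were 35 and 31 without wild-type replicates 1 and 2, and 33, 22 and 28 without spt replicates 4, 5 and 6. Of the log2 fold changes of 186 named probe sets, 1 changed its sign under an alternative, atp1a1a.3, at -0.069 without wild-type replicate 2 and 0.236 without wild-type replicate 1, beside 0.08 with all arrays. Most of the named probe sets were chosen for a clear change on these same arrays. That choice favours a stable sign, so this count is no check of their direction. Of the gene list medians, 30 of 264 moved by more than their spread over the spt arrays under other scalings, pseudocounts and filters, and 62 of 220 with an array left out. Of the list candidate counts without spt replicate 4, an alternative chosen after seeing the data, 39 of 88 moved by over 1.5 times. The causes of these shifts were not tested. With 2 wild-type arrays, the number of arrays limits the precision of all values.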

Other observations

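Lipid genes were measured outside the comparisons above. Of 20 sterol and lipid synthesis genes 3 were lower candidates and 0 higher, beside 3.23% and 3.32% of all genes. Their median was 0.06. Without spt replicate 4 there were 3 lower and 1 higher, beside 7.53% and 5.15% of all genes. With any other array left out 1 was lower. The prostaglandin synthase ptgesl had 767 and 731 in wild-type and 82.7, 76.5 and 302 in spt. The acyl-CoA synthetase acsl4a had 1338 and 1138 in wild-type and 479.7, 799 and 490.1 in spt, and nsdhl, an enzyme of cholesterol synthesis, had 165 and 177.4 in wild-type and 87.4, 135 and 91.2 in spt.

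Sox and Fox factors gave 3 lower and 3 higher candidates of 42, beside 3.23% and 3.32% of all genes. Their median was 0.01, and the counts were 1 and 1 without wild-type replicate 1 or spt replicate 5. On the higher side the SoxC factor sox11a had 629.9 and 555 in wild-type and 1513, 1754 and 1311 in spt, with other probe sets at 0.22 and 1.31. The forkhead factor foxk2a had 182 and 312 in wild-type and 433, 803 and 596 in spt. The crest and tailbud factor foxd3 was lower, with 251 and 398 in wild-type and 166, 210.1 and 161 in spt, and the groups of these 3 genes did not overlap. The secreted matrix protein tgfbi, outside these families, had 20.1 and 67.9 in wild-type and 787, 240.4 and 192 in spt.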
